A study of Homo sapiens with 24 samples.

Results

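Immediate early genes are genes that cells transcribe within minutes of a signal, without making new protein first. Here 10 of them were followed in a neuroblastoma cell line: EGR1, EGR3, ARC, FOS, FOSB, JUN, JUNB, IER2, NR4A1 and DUSP1. They were taken by gene symbol from the annotation of the array, where they are 10 of 20061 named genes and are covered by 19 of 62976 features. DUSP1 has 10 features and each of the other genes has 1. Of the 10 genes, 8 were tested; FOSB and NR4A1 were among the dimmest 25% of genes (mean log2 intensity below 6.43) and are given from a fit that left no gene out.

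The cells were SH-SY5Y, an established neuroblastoma line of a single tumour that is widely used as a neuron-like model. All cultures were transfected with the plasmid pCAGIG, and RNA was taken 24 h later. In V79_8x the labels describe overexpression of the FMR1 5' untranslated region (UTR) with 79 CGG repeats; the meaning of the mark 8x is not stated in those labels. V79 carried the same region with 79 repeats, V21 carried it with 21 repeats, and Mock received the empty plasmid. The array names write V80x2 for V79_8x and V80 for V79, so the repeat number rests on the labels. There were 6 arrays per group, one for each experiment letter from B to G, and an array is named here by its group and letter. The design text calls the 6 of a group biological replicates. The comparisons ask what the expanded repeat changes against the short one and the empty plasmid, and what the 8x condition changes against plain V79. Values are the deposited log2 intensities of 1-colour arrays, and a difference of -1 stands for an intensity cut to 50%. The intensities of different genes come from different probes and do not rank the genes by transcript number.

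In unstimulated cells most of these transcripts are scarce. Calcium entry or a growth factor activates the ERK and CREB pathways, which act on serum response factor at CArG boxes and on CREB at cyclic AMP response elements (CREs) in the promoters. The first products are transcription factors of the EGR, FOS, JUN and NR4A families, the synaptic protein ARC, and feedback proteins such as DUSP1 that switch the kinases off again. In neurons the induction follows synaptic activity, and EGR1, FOS and ARC are used as markers of active cells. The transcripts decay quickly after a single stimulus.

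The promoter elements that these pathways act on were searched in RefSeq promoter windows (GRCh38.p14, 250 bases before to 50 after the start, 300 bases in all, both strands). Windows matched 8 of the 10 genes, 9 windows in all since NR4A1 has 2. ARC and EGR3, the other members called lower in V79_8x below, had no window and were not searched. The motifs therefore do not compare called members with uncalled ones. The searches used the CArG box, the full CRE (TGACGTCA), its short form (TGACG, which the full CRE also holds), the EGR site (GCGNGGGCG), the AP-1 site (TGANTCA) and the TATA box (TATAAA). Of 35116 promoters, 1.29% hold a CArG box, 1.85% a full CRE, 24.6% a short CRE, 9.43% an EGR site, 7.71% an AP-1 site and 11.5% a TATA box. The sequences shown are those of EGR1, the member called in each comparison with V79_8x below, and of 3 members that were not called. Capitals mark the matched letters, and the strand is that of the gene.
EGR1 CArG box, chr5:138465364-138465393, plus strand: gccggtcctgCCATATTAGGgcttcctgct
EGR1 CArG box, chr5:138465386-138465415, plus strand: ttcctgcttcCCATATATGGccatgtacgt
EGR1 short CRE, read on the other strand, chr5:138465405-138465425, plus strand: gccatgtaCGTCAcgacggag
EGR1 EGR site, chr5:138465273-138465297, plus strand: ggatgcggGCGCGGGCGcgggccct
DUSP1 full CRE, chr5:172771305-172771328, minus strand: agggcgggTGACGTCAccgccccg
FOS short CRE, chr14:75278756-75278776, plus strand: tgagcccgTGACGtttacact
FOSB short CRE, chr19:45467928-45467948, plus strand: ggggcgggTGACGtaagcagg

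EGR1 was the only one of the 8 genes with a CArG box in its window, and the EGR site, to which EGR proteins bind, was also found in EGR1 alone. DUSP1 alone held the full CRE. The short CRE was present in DUSP1, EGR1, FOS, FOSB, IER2, JUN and JUNB, and the TATA box in DUSP1, FOS, FOSB and JUNB. None of the 9 windows held the AP-1 site. Such a match describes the letters of this window only. It does not show that a factor was bound.

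On the arrays as a whole, the sorted values differed by at most 0.01 between arrays, so a shift shared by most genes would not be seen. Of 24 arrays, 4 were high in histone genes (V79 B, V21 B, V21 C and Mock D), whose histone levels lay 0.42 to 0.94 above their group's median, against -0.15 to 0.10 for the other 20. None of the 4 is a V79_8x array, so the tested members' differences from V79_8x are also given without them. The share of all genes called in that fit is not given here. A call gained there therefore cannot be told from a general rise in calls. Of 40 histone genes, 2, 10 and 7 fell in V79_8x against V79, V21 and Mock, and 3, 10 and 18 without those 4 arrays. The 4 arrays stand apart by these same histone levels, so the counts without them are no independent check of the histone decrease. With all arrays 0.133%, 0.678% and 0.485% of all tested genes were called lower. The histone genes past the threshold with the largest change were H4C13 (-0.42) and H4C3 (-0.29) against V79, H1-5, H3C2, H4C5 and H4C8 (-0.89 to -0.63) against V21, and H4C11, H4C8, H4C9 and H2AC12 (-1.15 to -0.66) against Mock. Of these the calls of H1-5 and H4C5 against V21 ended without the 4 arrays (adjusted p = 0.17 and 0.055), and that of H4C13 with the experiment letter as a block (0.059). Leaving out single arrays also ended the calls of H4C13, H4C3, H1-5 and H4C5, with adjusted p up to 0.13. The mean of the 40 was 12.68 to 12.88 on V79_8x arrays, against 12.91 to 13.40 in V79, 12.96 to 13.93 in V21 and 13 to 13.58 in Mock. All 18 tested interferon response genes rose in each comparison of V79_8x, with median log2 differences of 3.21, 3.43 and 3.37 against V79, V21 and Mock. IFI44L, IFIT1, IFITM1 and IFI27 had the largest differences each time, 4.39 to 5.82. Their mean per array, over 19 listed genes, was 11.02 to 11.62 in V79_8x, 8.06 to 8.47 in V79, 7.91 to 8.20 in V21 and 8.08 to 8.47 in Mock. The part of the interferon and histone changes in the results below was not tested.

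The labelled cell type was checked on marker genes. The 13 noradrenergic neuroblastoma markers on the array averaged 11.80, 11.83, 11.85 and 11.84 in V79_8x, V79, V21 and Mock, and all lay above the dim limit. One of them, ISL1, a neuronal transcription factor, fell in V79_8x against Mock (-0.24 ± 0.06, limma adjusted p = 0.023), a call that ended when any 1 of 5 arrays was left out (V79_8x B, C or G, Mock D or G; adjusted p up to 0.081). The 13 mesenchymal markers averaged 10.64, 10.70, 10.74 and 10.69, and none passed in any comparison; PRRX1 (-0.28, adjusted p = 0.12) and COL1A1 (0.13, adjusted p = 0.23), both against V21, had the smallest p. Without the 4 histone-high arrays PRRX1, a transcription factor of mesenchymal cells, fell in all 3 comparisons (-0.25, -0.32 and -0.27, adjusted p = 0.039, 0.0048 and 0.01). Of 7 glial markers, GFAP, SOX10, MBP and CDH19 lay under the dim limit, and CNP rose in V79_8x against V79, V21 and Mock (0.41, 0.52 and 0.48). The glial markers averaged 8.05, 7.94, 7.91 and 7.96. The 4 blood cell markers averaged 6.80, 6.85, 6.81 and 6.83 with none called; HBB lay under the dim limit, and PTPRC (-0.12 in V79_8x against V21, adjusted p = 0.41) and CD3E (0.21 in V79 against V21, adjusted p = 0.83) had the smallest p.

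EGR1, EGR3 and ARC were the members that were lower in V79_8x cells, with called decreases of 18.4% to 28.7%, and no member was called higher. FOS, JUN, JUNB, IER2 and DUSP1 did not pass in any comparison. Between V79, V21 and Mock, no member passed. In V79_8x against V79, 2 of the 8 tested members fell, and the share of all 15046 genes called lower there was 0.133%. Against V21, 3 of 8 fell, with 0.678% of all genes called lower. Against Mock, 2 of 8 fell, with 0.485% of all genes called lower. The share called in either direction was 1.15%, 2.86% and 2.2% in the same order. At an unadjusted p under 0.05 there were 3 of 8 members each time, EGR1, EGR3 and ARC, beside 5.51%, 19.4% and 8.85% of all genes. All 3 comparisons share the V79_8x arrays, so their calls are not independent. The counts against V21 and Mock include EGR3, whose V79_8x mean of 6.41 lay under the dim limit of 6.43. The median difference of the 8 members was -0.15, -0.05 and -0.08, beside 0.01, 0.03 and 0.01 over all tested genes.

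**Figure D1:**
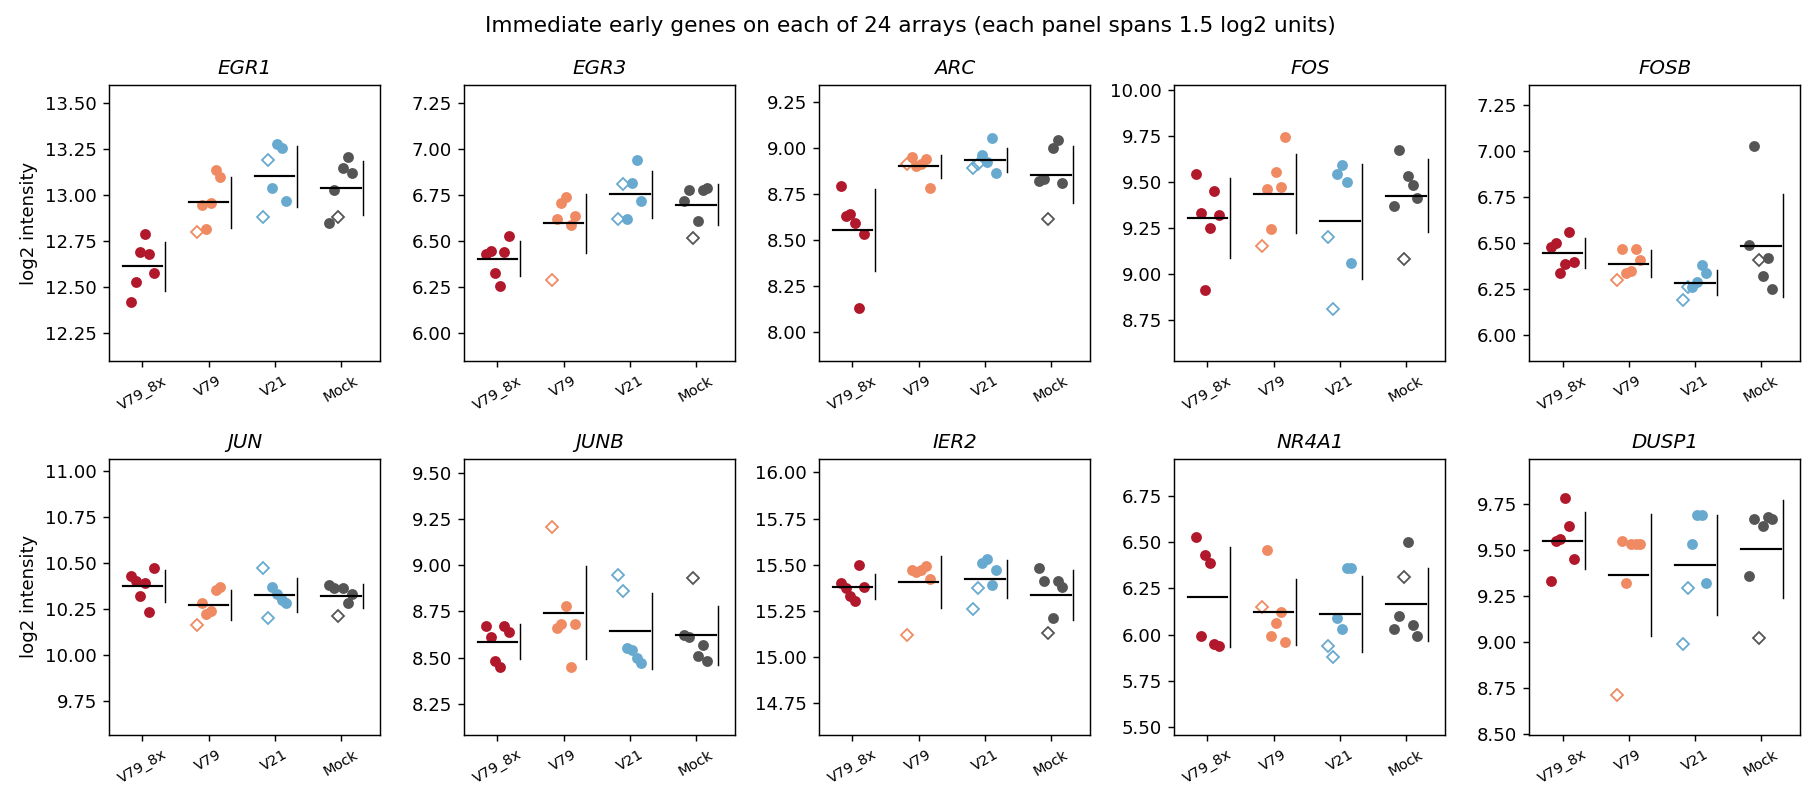
Log2 intensity of each gene on every array, in V79_8x, V79, V21 and Mock. Points are arrays, open diamonds are the 4 histone-high arrays, the bar is the group mean and the thin vertical line its SD (n = 6); each panel spans 1.5 log2 units, and the V79_8x arrays of EGR1 end at 12.79, below the lowest array of each other group.

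EGR1 (chr5:138465479-138469303) encodes a zinc finger transcription factor that carries the growth factor and synaptic signal on to later genes. On V79_8x arrays it lay between 12.42 and 12.79 with a median of 12.63. V79 arrays ran from 12.80 to 13.14 (median 12.96), V21 arrays from 12.88 to 13.28 (13.11) and Mock arrays from 12.85 to 13.21 (13.07). Every V79_8x array was below every array of the other groups, although the gap to the lowest V79 array was small. The EGR1 difference was -0.35 ± 0.09 against V79 (standard error, 95% interval -0.52 to -0.17), which is 21.4% lower intensity (limma adjusted p = 0.043). Against V21 EGR1 differed by -0.49 ± 0.09 (-0.67 to -0.31), 28.7% lower (adjusted p = 0.00074). Against Mock it differed by -0.43 ± 0.09 (-0.60 to -0.25), 25.5% lower (adjusted p = 0.0039). EGR1 was lower in V79_8x in 6 of 6 experiments in each comparison. Groups that did not overlap, with V79_8x lower, were found for 0.459%, 0.631% and 0.804% of all genes against V79, V21 and Mock, and the exact permutation of 6 against 6 arrays gave its smallest possible two-sided p, 0.00216, in all 3. In bulk RNA, fewer cells with the transcript and less transcript per cell cannot be told apart.

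The EGR1 call against V79 was close to the threshold. It ended when any 1 of 12 arrays was left out (V79_8x B, C, D, F or G, V79 C, E, F or G, V21 D, Mock C or G), with adjusted p from 0.052 to 0.14, the highest without V79 F. With the experiment letter as a block it was 0.0022, and without the 4 histone-high arrays the difference was -0.38 (adjusted p = 0.011). The calls against V21 and Mock held without each array in turn, with adjusted p up to 0.0033 and 0.016, and without the 4 arrays together the differences there were -0.52 and -0.46 (adjusted p = 0.00059 and 0.0011).

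EGR3 (chr8:22687659-22693480) encodes a related zinc finger factor that recognises the same DNA site and is itself induced downstream of EGR1 in several cell types. It was dim, with a mean of 6.61 and 3 of 24 arrays under the limit of 6.43. Its V79_8x mean, 6.41, lay under that limit, so EGR3 entered the test through its level in the other groups. Its V79_8x arrays lay between 6.26 and 6.53 (median 6.44), against 6.29 to 6.74 (6.63) in V79, 6.62 to 6.94 (6.76) in V21 and 6.52 to 6.79 (6.75) in Mock. V79_8x overlapped V79 and touched the range of Mock, and lay wholly below V21. EGR3 fell against V21 by 0.35 ± 0.08 on the log2 scale, 21.5% lower (-0.50 to -0.19, adjusted p = 0.008, lower in 6 of 6 experiments). It fell against Mock by 0.29 ± 0.08, 18.4% lower (-0.45 to -0.14, adjusted p = 0.037, lower in 6 of 6 experiments). The call against Mock ended when any 1 of 9 arrays was left out (V79_8x B, C, D, E or F, Mock B, C, F or G), with adjusted p from 0.059 to 0.11, the highest without V79_8x E. Against V79 the EGR3 difference was -0.19 ± 0.08 and did not pass (-0.35 to -0.04, adjusted p = 0.61, lower in 5 of 6 experiments). Array V79 B held the lowest EGR3 value of V79, and without the 4 histone-high arrays all 3 comparisons passed, with -0.25 against V79 (adjusted p = 0.025), -0.37 against V21 (0.00095) and -0.33 against Mock (0.0014). How a difference in intensity at this dim level relates to the difference in EGR3 transcript was not tested.

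The other EGR genes and their corepressors were not in the set of 10 and were set beside them after their values had been seen. EGR2, a further factor of the family, lay between 8.24 and 8.41 on V79_8x arrays (median 8.39), against 8.21 to 8.83 (8.65) in V79, 8.20 to 8.88 (8.82) in V21 and 8.32 to 8.87 (8.76) in Mock. The lowest EGR2 values of V79, V21 and Mock were those of V79 B, V21 B and Mock D, 3 of the 4 histone-high arrays, at 8.21, 8.20 and 8.32. The EGR2 difference was -0.23 ± 0.11 against V79, -0.36 ± 0.11 against V21 and -0.33 ± 0.11 against Mock, with adjusted p of 0.92, 0.091 and 0.20, and none passed. Without the 4 arrays it was -0.30 ± 0.05, -0.45 ± 0.06 and -0.40 ± 0.05, and all 3 passed (adjusted p = 0.0023, 2.7e-05 and 5e-05). Both the larger difference and the smaller standard error enter these calls. EGR4 differed by -0.01, -0.23 and -0.10, with adjusted p of 0.99, 0.39 and 0.97, and by -0.01, -0.44 and -0.13 without the 4 arrays, where none passed either. NAB1 and NAB2, corepressors that bind EGR1, did not pass, with NAB1 at -0.13, -0.28 and -0.16 and NAB2 at -0.04, -0.15 and -0.20. The dimmer of the NAB1 features ran the other way, at 0.15, 0.16 and 0.00.

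ARC (chr8:142611049-142614479) encodes an activity-regulated protein of excitatory synapses that controls the removal of AMPA receptors. Its level on V79_8x arrays lay between 8.13 and 8.79 with a median of 8.61. V79 arrays lay between 8.78 and 8.95 (median 8.91), V21 arrays between 8.86 and 9.05 (8.91) and Mock arrays between 8.61 and 9.04 (8.82). The V79_8x arrays were spread more widely than those of V79 or V21 (SD 0.22, against 0.06 in V79, 0.07 in V21 and 0.15 in Mock, n = 6 each), with V79_8x F the lowest and V79_8x B the highest. Only the range of V21 was clear of V79_8x. ARC fell against V79 by 0.35 ± 0.08, 21.4% lower (-0.52 to -0.17, adjusted p = 0.036, lower in 6 of 6 experiments). ARC fell against V21 by 0.38 ± 0.08, 23.2% lower (-0.55 to -0.21, adjusted p = 0.0092, lower in 6 of 6 experiments). Against Mock the ARC difference was -0.30 ± 0.08 (-0.47 to -0.13), 18.8% lower, and did not pass (adjusted p = 0.066, lower in 5 of 6 experiments).

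The ARC calls moved with single arrays and with the form of the fit. The call against V79 ended when any 1 of 9 arrays was left out (V79_8x C, E, F or G, V79 B, C, D, E or F), with adjusted p of 0.05 to 0.097, the highest without V79 C. It was also lost with the experiment letter as a block (adjusted p = 0.079). In a fit of the 2 groups alone the calls against V79 and V21 were both lost (0.11 and 0.074). Against Mock, ARC passed without V79_8x B or without Mock D (lowest adjusted p 0.024), and the highest value was 0.19, without Mock F. Without the 4 histone-high arrays ARC passed in all 3 comparisons, with -0.34 (adjusted p = 0.035), -0.40 (0.014) and -0.35 (0.019) against V79, V21 and Mock.

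**Figure D2:**
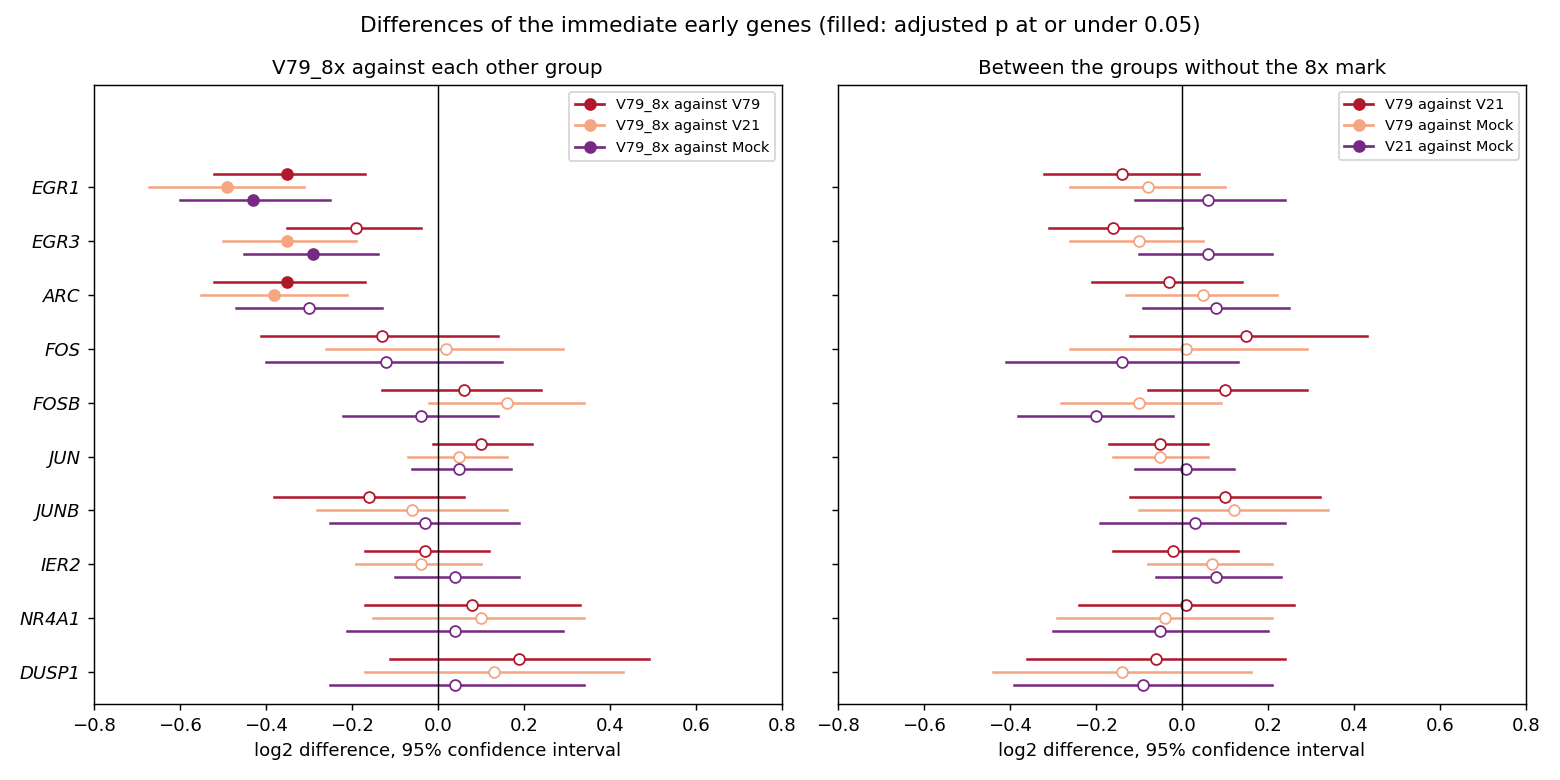
Log2 difference of each gene with its 95% confidence interval. The left panel sets V79_8x against V79, V21 and Mock, the right panel shows the comparisons between the remaining groups; filled points passed the threshold of 0.05 and open points did not. EGR1, EGR3 and ARC lie left of 0 in each comparison of V79_8x, and the intervals of FOS, FOSB, JUN, JUNB, IER2, NR4A1 and DUSP1 include 0 there.

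FOS, FOSB, JUN and JUNB encode the leucine zipper proteins that pair to form AP-1. FOS (chr14:75278828-75282230) had V79_8x arrays between 8.91 and 9.54 (median 9.32), V79 arrays between 9.15 and 9.74 (9.46), V21 arrays between 8.81 and 9.59 (9.35) and Mock arrays between 9.08 and 9.67 (9.45). All 4 groups overlapped for FOS, and its spread within groups (SD 0.24) was above the median gene's 0.17. Its difference was -0.13 against V79 (-0.41 to 0.14), 0.02 against V21 (-0.26 to 0.29) and -0.12 against Mock (-0.40 to 0.15), with adjusted p of 0.98, 0.95 and 0.95. These intervals include a FOS decrease as large as that of ARC against Mock, -0.30, against V79 and Mock, and end short of it against V21. The FOS difference was -0.19, -0.12 and -0.19 without the 4 histone-high arrays, so its sign against V21 turned, and none passed.

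JUN (chr1:58780791-58784047), the partner that FOS proteins need, was the steadiest of the 10, with an SD within groups of 0.08 that was below that of all but 2.35% of genes. Its V79_8x arrays lay between 10.23 and 10.47 (median 10.39), against 10.16 to 10.37 (10.26) in V79, 10.20 to 10.47 (10.32) in V21 and 10.21 to 10.38 (10.34) in Mock. The groups overlapped. The JUN difference was 0.10 against V79 (-0.01 to 0.22), 0.05 against V21 (-0.07 to 0.16) and 0.05 against Mock (-0.06 to 0.17). All 3 intervals leave out a decrease of the size seen for EGR1. JUN differed by 0.08, 0.05 and 0.03 without the 4 histone-high arrays.

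JUNB (chr19:12791486-12793315), a JUN relative that often restrains JUN, had V79_8x arrays between 8.45 and 8.67 (median 8.62), V79 arrays between 8.45 and 9.21 (8.68), V21 arrays between 8.47 and 8.95 (8.54) and Mock arrays between 8.48 and 8.93 (8.59). The highest arrays of V79, V21 and Mock were V79 B, V21 B and Mock D. The JUNB difference was -0.16 against V79 (-0.38 to 0.06), -0.06 against V21 (-0.28 to 0.16) and -0.03 against Mock (-0.25 to 0.19), none past the threshold. Without those 3 arrays and V21 C it was -0.06, 0.07 and 0.03, so its sign turned against V21 and Mock, and none passed.

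FOSB (chr19:45467996-45475179) lasts longer in neurons through its truncated form. How a difference in intensity at its dim level relates to the difference in transcript was not tested. FOSB was below the dim limit on 17 of 24 arrays. It lay between 6.34 and 6.56 on V79_8x arrays (median 6.44), 6.30 to 6.47 (6.38) in V79, 6.19 to 6.38 (6.28) in V21 and 6.25 to 7.03 (6.42) in Mock. In the fit with no gene left out, FOSB differed by 0.06 against V79 (-0.13 to 0.24), 0.16 against V21 (-0.02 to 0.34) and -0.04 against Mock (-0.22 to 0.14). Against V21 it was higher in V79_8x in 6 of 6 experiments and the exact permutation p was 0.00649, but the adjusted p over all genes was 0.38.

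Of 13 tested genes listed as AP-1 partners, 1, 2 and 2 rose in V79_8x against V79, V21 and Mock, and 0 fell. Of all tested genes 1.15%, 2.86% and 2.2% were called there in either direction. BATF2, a leucine zipper factor of immune cells that interferon induces, rose by 2.56, 2.60 and 2.50 on the log2 scale, which is 5.90-, 6.04- and 5.64-fold. It stood at 9.08 in V79_8x and at 6.52, 6.49 and 6.58 in V79, V21 and Mock, close to the dim limit in the 3 lower groups. ATF3, a stress-induced factor of the ATF family, rose by 0.55 against V21 on its brightest feature (adjusted p = 0.0064). Without the 4 histone-high arrays that difference was 0.35 (adjusted p = 0.025). The dimmer ATF3 features differed by -0.21, -0.58 and 0.30 against V21, so the rise was not shared by all of them. JDP2, a repressor that binds JUN, rose by 0.23 against Mock (adjusted p = 0.049), a call that ended when any 1 of 20 arrays was left out (any but V79 B, V21 B, V21 C and Mock E, adjusted p up to 0.15) and with the experiment letter as a block (0.06). Without the 4 histone-high arrays JDP2 rose against V21 as well (0.21, adjusted p = 0.015), and ATF7, an ATF family factor named after its values were seen, fell against Mock (-0.19, adjusted p = 0.05).

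IER2 (chr19:13150411-13154911) encodes a small nuclear protein. It was bright on every array, with V79_8x between 15.30 and 15.50 (median 15.38), V79 between 15.12 and 15.49 (15.46), V21 between 15.26 and 15.53 (15.43) and Mock between 15.13 and 15.48 (15.39). The IER2 groups overlapped, with differences of -0.03 against V79 (-0.17 to 0.12), -0.04 against V21 (-0.19 to 0.10) and 0.04 against Mock (-0.10 to 0.19). These intervals too end short of the EGR1 difference of the same comparison. IER2 differed by -0.08, -0.09 and 0.00 without the 4 histone-high arrays, none past the threshold.

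NR4A1 (chr12:52022832-52059503), an orphan nuclear receptor of activated neurons and T cells, was under the dim limit on 20 of 24 arrays. It lay between 5.94 and 6.53 in V79_8x (median 6.19), 5.96 and 6.46 in V79 (6.09), 5.88 and 6.36 in V21 (6.06) and 5.99 and 6.50 in Mock (6.07). For scale, 25% of all values on the arrays lay under 6.15. The NR4A1 difference was 0.08 against V79 (-0.17 to 0.33), 0.10 against V21 (-0.15 to 0.34) and 0.04 against Mock (-0.21 to 0.29) in the fit with no gene left out, and nothing can be read from a probe at this level.

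DUSP1 (chr5:172768096-172771195) encodes a nuclear phosphatase that inactivates the kinases p38, JNK and ERK and so ends the signal. Its brightest feature lay between 9.33 and 9.78 on V79_8x arrays (median 9.55), 8.71 and 9.55 in V79 (9.53), 8.99 and 9.69 in V21 (9.43) and 9.02 and 9.68 in Mock (9.65). The lowest arrays of V79, V21 and Mock were V79 B, V21 B and Mock D, and all 4 groups overlapped. The DUSP1 difference was 0.19 against V79 (-0.11 to 0.49), 0.13 against V21 (-0.17 to 0.43) and 0.04 against Mock (-0.25 to 0.34), none past the threshold. It was 0.06, -0.01 and -0.05 without the 4 histone-high arrays, smaller against V79 and of the other sign against V21 and Mock, and none passed. The 10 DUSP1 features gave one picture, with means between 9.09 and 9.46, a median pairwise correlation of 0.92 over the 24 arrays (lowest 0.81), and an SD between features within an array of 0.13, against 0.29 between arrays. Their differences ran from 0.12 to 0.19 against V79, from 0.08 to 0.29 against V21 and from -0.03 to 0.07 against Mock. DUSP1 thus varied more between arrays than between its features.

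The wider feedback arm was measured through 20 tested genes listed as ERK feedback and delayed targets (phosphatases of the DUSP family, Sprouty and SPRED proteins, ETV factors and others). By limma 0 of 20 passed in each of the 6 comparisons, and 1, 3 and 0 had an unadjusted p under 0.05 in V79_8x against V79, V21 and Mock. PHLDA1, a gene induced downstream of ERK, differed by 0.30 against V21 (adjusted p = 0.14) and ETV1, an ETS factor, by 0.32 (adjusted p = 0.19). Without the 4 histone-high arrays 1 of the 20 fell in each V79_8x comparison: DUSP5, a nuclear ERK phosphatase, named after its values were seen, at -0.23, -0.22 and -0.22 (adjusted p = 0.014, 0.029 and 0.015). With all arrays DUSP5 differed by -0.14, 0.00 and -0.16, with adjusted p from 0.90 to 0.99. The share of all genes called without the 4 arrays is not given here, so the DUSP5 calls cannot be told from a general rise. Of 31 genes listed for the signalling to immediate early promoters (SRF and its cofactors, CREB, the MAP kinase cascade, RSK and calcium kinases), 1 rose in V79_8x against V21: RPS6KA2, an RSK kinase, by 0.25 (adjusted p = 0.0064). Against V21, 2.86% of all tested genes were called in either direction. None of the 31 passed in the other comparisons.

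Between the groups without the 8x mark, no member was called. The share of all genes called was 0.00665% in V79 against V21, 0.00665% in V79 against Mock and 0.0% in V21 against Mock, and 1, 0 and 0 of the 8 members had an unadjusted p under 0.05 by limma, beside 3.81%, 2.7% and 3.23% of all genes. Longer against shorter repeats (V79 against V21) gave -0.14 for EGR1 (-0.32 to 0.04, adjusted p = 0.83), -0.16 for EGR3 (adjusted p = 0.83, unadjusted p = 0.05) and -0.03 for ARC (adjusted p = 0.94). V79 against Mock gave -0.08 for EGR1, lower in 6 of 6 experiments, and 0.05 for ARC, each with an adjusted p of 1.0. In V21 against Mock the FOSB difference was -0.20 (unadjusted p = 0.033, adjusted p = 0.84), and Mock C, at 7.03, was the highest FOSB array of all.

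Within a group the cultures differed from each other, and some members differed together. Deviations of each array from its group mean were compared between the 8 tested members over all 24 arrays, 28 pairs in all, with permutation of the deviations within groups (100000 resamples) and adjustment over the 28 pairs. The permutation took no account of the experiment letter, so a shift shared by the arrays of one letter counts toward a correlation. The median Pearson r of the pairs was 0.18, next to 0.16 for the members with all other tested genes. By Pearson's r 9 of the 28 pairs passed, 8 of them pairs of DUSP1 or IER2, and 3 of the 9 passed by rho too. EGR1 and DUSP1 had the highest r, with r = 0.77 and Spearman's rho = 0.82 (n = 24, adjusted permutation p = 0.00028 for both, from the smallest p the resamples can give, 1e-05). Without the 2 arrays farthest in EGR1 the r was 0.72, and without the 4 histone-high arrays it was 0.84. FOS and DUSP1 had r = 0.59 and rho = 0.58 (adjusted permutation p = 0.033 and 0.055), with r = 0.68 without the 2 farthest arrays and 0.39 without the 4.

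JUNB ran against DUSP1, with r = -0.84 and rho = -0.67 (n = 24, adjusted permutation p = 0.0022 and 0.016), which became -0.69 without the 2 farthest arrays and -0.45 without the 4 histone-high arrays. EGR1 and JUNB gave r = -0.57 and rho = -0.60 (adjusted permutation p = 0.033 and 0.047), with -0.50 and -0.49 without those arrays. JUNB had a median r of -0.24 with all tested genes, against 0.06 to 0.26 for the other tested members. Its negative pairs are therefore not particular to DUSP1 and EGR1. Some pairs of IER2 rested on few arrays: EGR3 and IER2 gave r = 0.68 but rho = 0.36, and r = 0.29 without the 4 histone-high arrays, and IER2 and DUSP1 gave r = 0.67 and rho = 0.38, and r = -0.08 without the 4. FOS and IER2 gave r = 0.51 and rho = 0.52 (adjusted permutation p = 0.047 and 0.10), with r = 0.53 without the 2 farthest arrays and 0.20 without the 4. Among the 3 members that were lower in V79_8x no pair passed. EGR1 and ARC gave r = 0.10 and rho = 0.24 (adjusted permutation p = 0.69 and 0.47, r = 0.25 without the 2 farthest), EGR1 and EGR3 r = 0.32 and rho = 0.28 (0.27 and 0.44, r = 0.29), and EGR3 and ARC r = 0.10 and rho = 0.05.

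**Figure D3:**
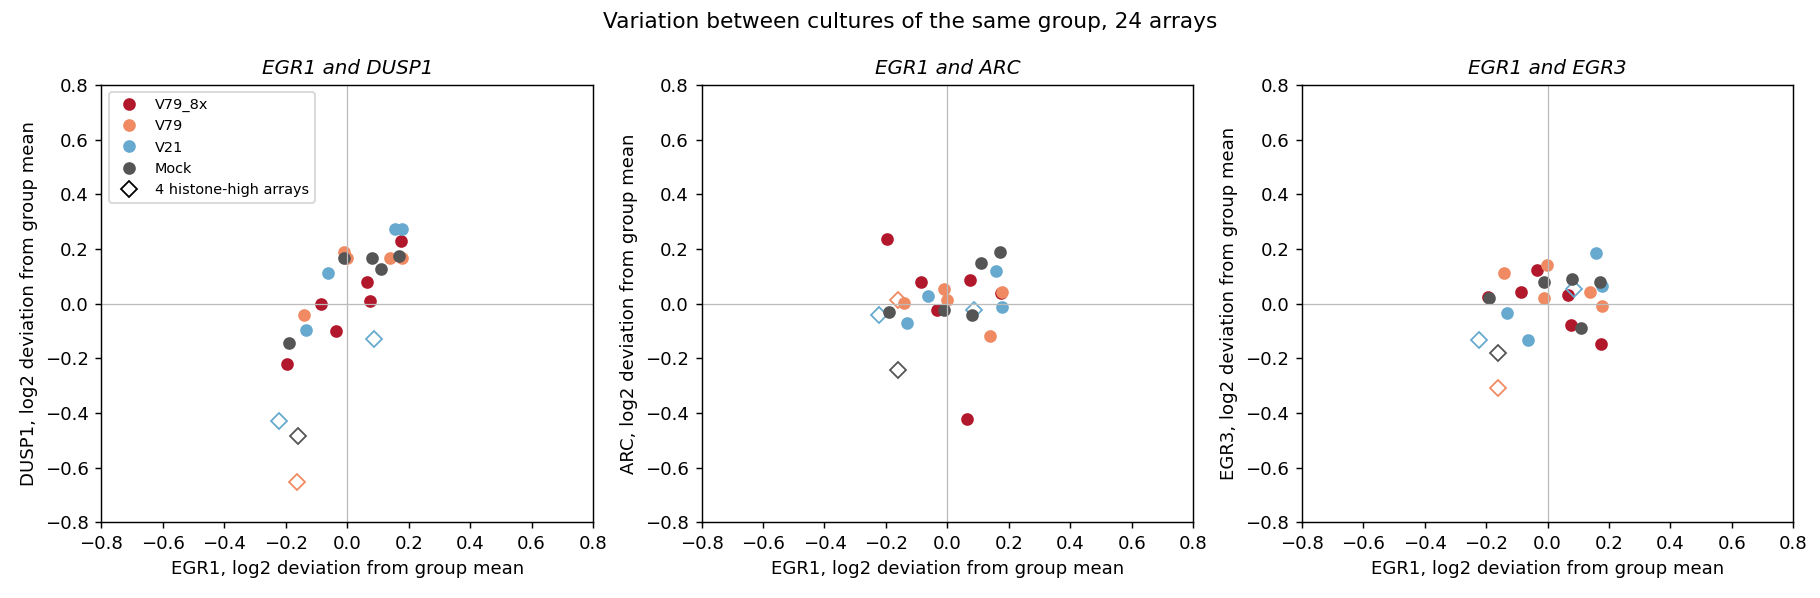
Deviation of each array from its group mean, in log2 units, for EGR1 on the horizontal axis and DUSP1, ARC or EGR3 on the vertical axis, with colours for V79_8x, V79, V21 and Mock and open diamonds for the 4 histone-high arrays. The 24 points lie along a rising line for EGR1 and DUSP1 (r = 0.77) and scatter for EGR1 and ARC (r = 0.10) and for EGR1 and EGR3 (r = 0.32).

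EGR1 and DUSP1 thus moved together between cultures of one group, while of the 2 only EGR1 was called between groups. The log2 ratio of EGR1 to DUSP1 within an array, looked at after the correlation was seen and given without a test, was 2.98 to 3.13 (median 3.07) in V79_8x. It was 3.40 to 4.09 (3.54) in V79, 3.51 to 3.90 (3.62) in V21 and 3.36 to 3.86 (3.50) in Mock. The V79_8x range lay below all arrays of the other groups. EGR1 alone already lay below them, so the ratio is no separate evidence of a difference. Without the 4 histone-high arrays, which held the highest ratios, the ranges of V79, V21 and Mock were 3.40 to 3.61, 3.51 to 3.65 and 3.36 to 3.53, and still lay above V79_8x. A correlation over arrays can also reflect what arrays share: 36.0% of all tested genes had r above 0.5 with DUSP1, 31.5% with FOS, 31.3% with IER2, 21.0% with EGR3, 16.4% with EGR1, 15.5% with JUNB, 1.82% with JUN and 0.605% with ARC.

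The same deviations were set against the experiment letters. EGR1 was low on all 4 arrays of experiment B, with deviations of -0.22 to -0.16, and high in F (0.14 on average) and E (0.11). DUSP1 was also low in B (-0.36 on average) and high in E (0.20) and F (0.17), whereas FOS was lowest in D (-0.17) and highest in E (0.12). In a limma test of the 6 letters none of the 8 members passed, beside 0.0199% of all genes (adjusted p = 0.18 for EGR1 and 0.19 for DUSP1). At an unadjusted p under 0.05 there were 2 of 8 members, EGR1 and DUSP1, beside 14.9% of all genes. Since each experiment holds all 4 groups, the letter is not confounded with them.

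The genes most like EGR1 over the 24 arrays, by the r of the deviations from the group means, were ZNF200 (r = 0.90), RAP1GDS1 (0.88), RUNDC1 (0.86), ZNF649 (0.85) and ABHD17B (0.85). Those most like ARC were KLF3 (0.76), PKIA (0.75), BRCA1 (0.72), KCNK4 (0.71) and B9D1 (0.71). Those most like FOS were GTF3C2 (0.95) and then DHX15, STN1, MREG and PRMT3 (0.94 each). None of these 15 genes passed in any comparison of V79_8x, with adjusted p of 0.26 or more.

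Among 40 other tested immediate early genes, listed beside the 10, changes ran in both directions. In V79_8x 2 rose and 1 fell against V79, 4 rose and 1 fell against V21, and 4 rose and 1 fell against Mock. Of all tested genes 1.15%, 2.86% and 2.2% were called in either direction, and 0.133%, 0.678% and 0.485% were called lower. The median difference of the 40 was 0.01, 0.03 and 0.01, equal to that of all tested genes in each comparison. No gene of the list passed between V79, V21 and Mock, where 2, 1 and 1 had an unadjusted p under 0.05 by limma in V79 against V21, V79 against Mock and V21 against Mock. With the experiment letter as a block 1 rose against V79 in place of 2, since GADD45B no longer passed (adjusted p = 0.051). Without the 4 histone-high arrays 3, 4 and 5 rose and 2 fell each time, EGR2 and GEM. The share of all genes called in that fit is not given here. The calls gained there therefore cannot be told from a general rise in calls.

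GEM, a small GTPase of the RGK family that restrains voltage-gated calcium channels, was the 1 that fell. Its V79_8x arrays lay between 11.23 and 11.42 (median 11.35), against 11.52 to 11.79 (11.68) in V79, 11.75 to 11.99 (11.85) in V21 and 11.67 to 11.90 (11.78) in Mock, with no overlap. The GEM difference was -0.34 ± 0.06 against V79, -0.53 ± 0.06 against V21 and -0.44 ± 0.06 against Mock (adjusted p = 0.0023, 2.5e-06 and 4.8e-05), lower in 6 of 6 experiments each time. GEM kept these calls without each array in turn, with adjusted p up to 0.01, 1.6e-05 and 0.00026.

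IRF1, a transcription factor that interferon induces, rose by 0.55, 0.54 and 0.52 against V79, V21 and Mock (adjusted p = 6.9e-05, 6.5e-05 and 0.00011). GADD45B, a stress and NF-kB target that acts on p38 and JNK signalling, rose by 0.46, 0.47 and 0.52 (adjusted p = 0.045, 0.019 and 0.01). The GADD45B call against V79 ended when any 1 of 14 arrays was left out (V79_8x B, C, D, E or G, V79 D, E, F or G, V21 E, F or G, Mock F or G, adjusted p 0.054 to 0.14), and that against V21 without V79_8x B, V79_8x E or V21 B (0.054 to 0.064). ATF3 rose against V21, to 12.04 in V79_8x against 11.49 in V21; with all arrays its differences of 0.42 against V79 and 0.34 against Mock did not pass (adjusted p = 0.12 and 0.21), and without the 4 histone-high arrays they did (0.39 and 0.30, adjusted p = 0.0082 and 0.037). Of the 3 dimmer ATF3 features one ran the same way as the brightest (0.26, 0.30 and 0.17 against V79, V21 and Mock), one was mixed (0.08, -0.21 and -0.01) and one ran the other way (-0.35, -0.58 and -0.31). EDN1, the precursor of endothelin, rose by 0.30 against Mock (adjusted p = 0.014, and 0.051 without V79_8x G). BTG2, an antiproliferative gene that p53 induces, was named after its values were seen: it rose by 0.38 against V21 (adjusted p = 0.0013) and by 0.26 against Mock (0.043), and its difference of 0.18 against V79 did not pass (0.53).

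**Figure D4:**
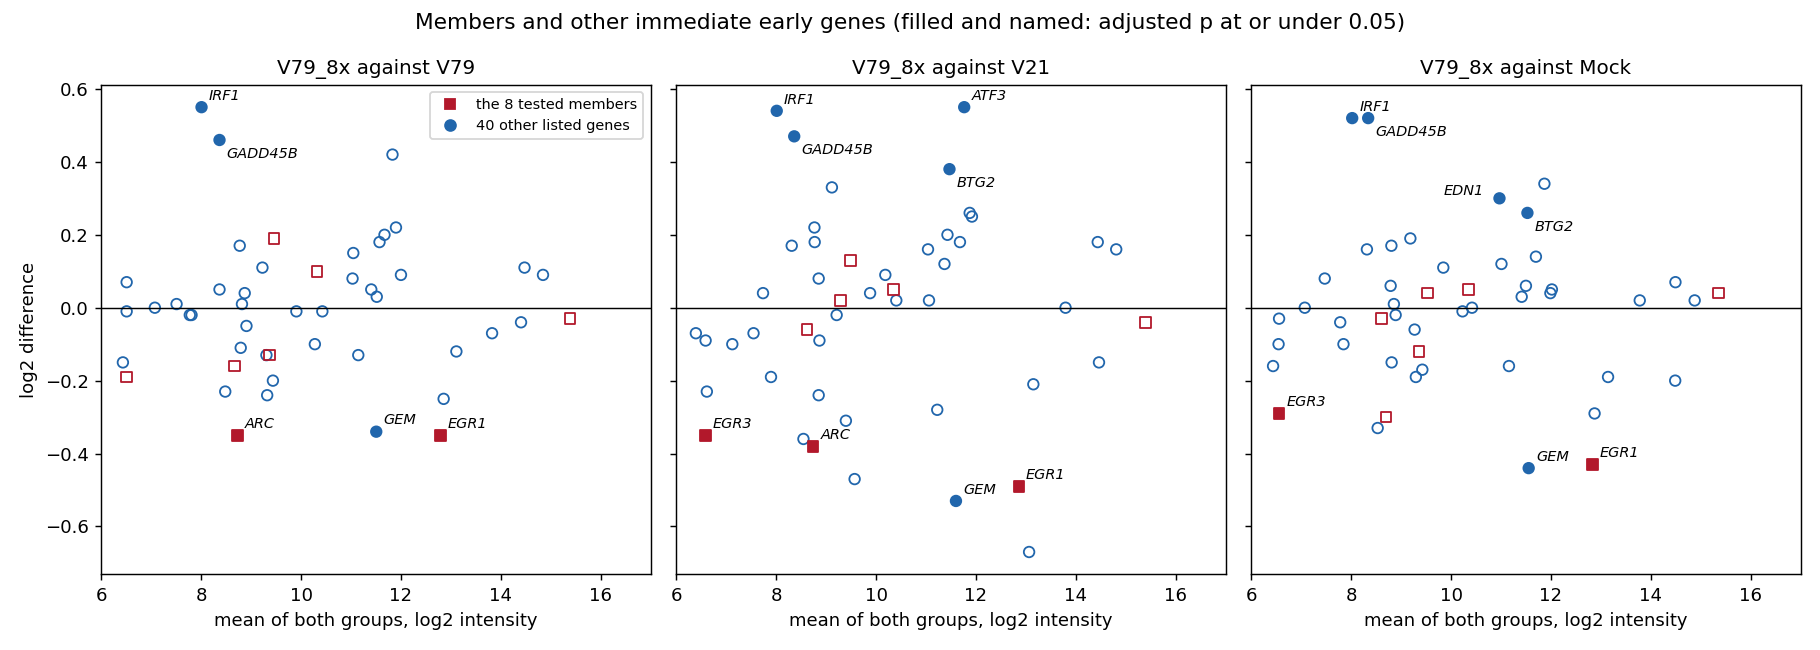
Log2 difference of V79_8x against V79, V21 and Mock (vertical axis) over the mean log2 intensity of both groups (horizontal axis), for the 8 tested members (squares) and 40 other tested immediate early genes (circles). Filled, named symbols passed the threshold: EGR1 and GEM lie below 0 in all 3 panels, IRF1 and GADD45B above 0.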

How the data were processed

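The authors' deposited table holds log2 intensities of 62976 features on 24 single-channel Cy3 arrays, made from 100 ng of RNA each, per the labels. How the authors corrected background and normalised is not stated in the labels or the table; scanner files and detection flags were not used here. Of the features, 37051 had 1 gene symbol, 0 several and 25925 none; names were updated by accession (33702) or former symbol (644), and 2705 kept the platform's. The brightest feature by mean stood for a gene (7156 of 20061 genes have more than 1), and the dimmest 25% of genes were left out, leaving 15046.

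Differences were tested with limma 3.58.1 (lmFit, eBayes; statmod 1.5.0) in R 4.3.3, with the 4 groups in 1 fit, no covariates, two-sided p adjusted by Benjamini-Hochberg over the 15046 genes, threshold 0.05; the procedure was tested on simulated data. A comparison is the group named first minus the other. ± is a standard error for a difference and an SD for a level (n = 6). Precision is limited by the number of arrays: the median standard error was 0.0979. Single genes also had an exact permutation of 6 against 6 arrays (smallest p 0.00216). Correlations, promoter searches and figures used Python 3.11.15 (pandas 2.3.3, numpy 2.4.6, scipy 1.17.1, matplotlib 3.10.9). Sequences and positions are RefSeq's, GRCh38.p14.

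Named were all 10 members, of each gene list up to 4 genes past the threshold with the largest change per comparison (or the 2 with the smallest p where none passed), and the 5 genes most correlated with EGR1, ARC and FOS. The lists were other immediate early genes, ERK feedback, signalling to the promoters, AP-1 partners, histones, interferon response and 4 sets of cell markers. The members and lists were chosen with earlier results of these data known, as were the 4 histone-high arrays left out in 1 alternative. Experiment letters (per the labels' titles) were taken as pairing the arrays of all 4 groups, with the block as an alternative; arrays of one letter deviated together (r over 0.1) in 6 of 6 letters in V79_8x against Mock (0.18 to 0.57), 3 against V79 (-0.20 to 0.43) and 1 against V21 (-0.52 to 0.44). The own letter was the best match in 3 of 6 letters against Mock, 2 against V79 and 1 against V21. It was the best match in 0 of 6 in V79 against Mock and in V21 against Mock. The letters thus pair the arrays only in part. Alternatives were 10 other settings and leaving out each of 24 arrays.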

Additional observations from a re-analysis of the deposited data

Results flagged for a closer look

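Within the 4 groups of 6 arrays, the highest or lowest array of each of the 10 genes was set against its nearest neighbour with Dixon's gap test (critical value 0.625 for 6 arrays). Of 40 sets, 6 were marked, where chance marks about 1 in 20. On V79 B, EGR3 was 6.29 where the nearest array was 6.59, IER2 was 15.12 where the nearest was 15.42, and DUSP1 was 8.71 where the nearest was 9.32. On Mock D, JUNB was 8.93, above the next array at 8.62. Both arrays are among the 4 that are high in histone genes. On V79 G, ARC was 8.78 where the nearest array was 8.90, which brought V79 to within the range of V79_8x. On Mock C, FOSB was 7.03 where the nearest was 6.49. None of the 6 is a V79_8x array.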

How the results depend on the processing

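The 3 members called in V79_8x against V21 stayed called without each array in turn. Their count was 2 with the dimmest 50% left out, where EGR3 was not tested. It was also 2 in a fit of the 2 groups alone, where ARC did not pass (limma adjusted p = 0.074). In the other comparisons, changes to the fit and the arrays moved counts as follows. Against V79, where 2 members were called, the count was 1 with no genes left out as dim (EGR1 at an adjusted p of 0.05), 1 in a fit of the 2 groups alone and 1 with the replicate block, and 0 to 2 without each array in turn. Against Mock, where 2 were called, it was 1 with the dimmest 50% left out (EGR3 was not tested there) and 1 to 3 without each array in turn. Of members that differ between experiments, 0 were called in the main fit and 1 with array weights (EGR1, adjusted p = 0.035). With array weights EGR3 against V79 (adjusted p = 0.011) and ARC against Mock (0.0012) also passed. Over single differences of the members, 1586 kept their side of the threshold, 34 lost a call, 6 gained one, and no called difference changed sign. Among the members' calls the replicate block ended that of ARC against V79 and no other. Limits: EGR3, FOSB and NR4A1 lie near the dim end, where the relation of intensity to transcript was not tested. Each gene but DUSP1 rests on 1 feature, and the deposited normalisation hides a shift of most genes.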
